A study of Homo sapiens with 12 samples.

Results

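The genes described here are the small nucleolar RNA host genes (SNHG) of the human genome: every gene symbol made of SNHG and a number, plus GAS5, 29 of the 28163 gene symbols listed on chromosomes 1 to 22 and X. They were chosen by name, with earlier results of these data known. Each is represented by 1 deposited transcript model, the one whose fragment count summed over all 12 libraries was highest. The study sequenced poly(A)-selected RNA from 2 wild-type human cell lines, PC3, a prostate adenocarcinoma line, and MG63, an osteosarcoma line. Each line received 1 of 3 siRNAs at 10 nM for 72 h: a non-targeting siRNA (siControl), one against LARP4A (siLARP4A, gene symbol LARP4) or one against LARP4B (siLARP4B). The 6 groups had 2 libraries each, described by the submitters as biological replicates, and each group is 1 established line. The reagents are named only by their target, and how many siRNA sequences each group received is not given in the sources used here.

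SNHG genes carry small nucleolar RNAs (snoRNAs) in their introns. Splicing releases the snoRNA, which guides chemical modification of ribosomal or spliceosomal RNA: box C/D snoRNAs guide methylation of the ribose, box H/ACA snoRNAs guide pseudouridylation, and small Cajal body RNAs (scaRNAs) act on spliceosomal RNAs. The spliced exons are exported, often engage ribosomes on short reading frames, and many are then degraded by nonsense-mediated decay, so that their level in the cytoplasm is known to depend on translation. GAS5, named for its accumulation in growth-arrested cells, is the textbook case: like ribosomal protein mRNAs it begins with a C followed by pyrimidines, the terminal oligopyrimidine (TOP) motif, and its spliced RNA accumulates when translation or decay is blocked. LARP4A and LARP4B are RNA-binding proteins of the La-related family that associate with poly(A)-binding protein and polyadenylated mRNA.

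Of the 29 genes, 27 contain at least 1 annotated snoRNA or scaRNA gene and together they hold 142, of which SNHG14 holds 83, GAS5 11 and SNHG1 8. The bases around the start are shown because a start with C and pyrimidines is the sequence feature these host genes are known for. Shown are the members that passed a comparison with siControl, had a mean FPKM (fragments per kilobase of model and per 1000000 of the library) of at least 20 with siControl in a line and have the same start in RefSeq as in the deposited model, a rule chosen after the values were seen. In each window of 40 bases the annotated RefSeq start of transcription (GRCh38.p14) is base 21, and capitals mark CTTT.
SNHG5: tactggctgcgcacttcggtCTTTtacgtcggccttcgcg
SNHG19: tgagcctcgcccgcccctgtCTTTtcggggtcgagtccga
SNHG16: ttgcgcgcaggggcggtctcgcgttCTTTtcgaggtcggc
SNHG29: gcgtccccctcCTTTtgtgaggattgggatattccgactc
SNHG8: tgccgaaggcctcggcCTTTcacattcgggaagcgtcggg
SNHG1: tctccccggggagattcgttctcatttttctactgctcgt
SNHG3: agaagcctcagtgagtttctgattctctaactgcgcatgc
SNHG7: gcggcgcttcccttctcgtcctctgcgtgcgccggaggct
SNHG18: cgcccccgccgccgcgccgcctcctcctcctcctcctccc
For GAS5 the RefSeq start lies 1054 bases from that of the deposited model, so the first 30 bases of the matching GENCODE 29 transcript (GRCh38) are given instead.
GAS5: gtCTTTtcgaggtaggagtcgactcctgtg
The windows lie at chr6:85678714-85678753 (SNHG5), chr16:2155339-2155378 (SNHG19), chr17:76557744-76557783 (SNHG16), chr17:16438967-16439006 (SNHG29), chr4:118278742-118278781 (SNHG8), chr11:62855866-62855905 (SNHG1), chr1:28505923-28505962 (SNHG3), chr9:136728165-136728204 (SNHG7) and chr5:9546180-9546219 (SNHG18), and the GAS5 bases at chr1:173867962-173867991. SNHG5, SNHG19, SNHG1, SNHG7 and GAS5 are on the minus strand and SNHG16, SNHG29, SNHG8, SNHG3 and SNHG18 on the plus strand. In SNHG5 and SNHG19 the CTTT began at the annotated first base, in GAS5 at base 3 of the transcript, in SNHG16 at the sixth base, and in SNHG29 and SNHG8 upstream of it. Of the 9 windows shown 5 hold CTTT. The capitals do not sort the genes by a start with C and pyrimidines. SNHG18 and SNHG7 hold no CTTT, yet from base 21 they read C followed by pyrimidines. In SNHG29 base 21 is G, and in SNHG8 it is a C followed by A. CTTT, searched on the transcribed strand only and allowing overlaps, occurred in 9 of the 23 members matched by symbol in the RefSeq table and in 15.5% of 27305 promoter windows of the same length. Annotated starts can miss the main start by several bases, and a match here is a description of letters.

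The libraries held 16950119 to 24864977 fragments, of which the tested host genes took 761 to 1390 FPM (fragments per 1000000 of the library). LARP4 had a mean FPKM of 19.2 with siControl and 2.41 with siLARP4A in PC3, and of 8.34 and 2.15 in MG63. LARP4B had 7.10 with siControl and 1.31 with siLARP4B in PC3, and 6.71 and 2.05 in MG63, so both targeted genes were lower in the libraries labelled for them. LARP4 rose with siLARP4B in MG63 (log2 fold change 0.44, adjusted p = 5.3e-06, mean FPKM 11.1), while its PC3 value was -0.07 (adjusted p = 0.34), and the difference between lines passed the test (adjusted p = 6.1e-05). LARP4B passed the test with siLARP4A in neither line (-0.07 and 0.08, adjusted p = 0.43 and 0.41). Of 5 epithelial markers, EPCAM had a mean FPKM of 25.1 in PC3 siControl and 0 in MG63 siControl, and KRT8, KRT18, KRT19 and CDH1 were also higher in PC3. Of 6 bone and mesenchymal markers, COL1A1 had 2.43 in PC3 and 745 in MG63, and COL1A2, COL3A1 and SPARC ran the same way. TWIST1 was higher in PC3 (28.4 against 7.41), and RUNX2, a defining transcription factor of bone-forming cells, was near 0 in both (0.260 and 0.159). In bulk RNA, fewer cells expressing a gene and less RNA per cell cannot be told apart.

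Per length, the host genes spanned a wide range with siControl. In PC3 with siControl the highest mean FPKM was that of SNHG29 (177, SD 0.802, n = 2), followed by SNHG6 (82.2, SD 6.58), SNHG16 (73.1, SD 0.769), GAS5 (55.7, SD 0.669), SNHG5 (47.8, SD 4.62) and SNHG8 (46.2, SD 4.57). SNHG5 and SNHG8 overlapped in that order, as did no other neighbouring pair of the 6. In MG63 the order was SNHG5 (326, SD 6.66), SNHG29 (220.3, SD 3.16), SNHG19 (198, SD 6.65), GAS5 (194, SD 6.89) and SNHG6 (105, SD 1.43), with SNHG19 and GAS5 overlapping. Between the lines with siControl, 19 of the 27 tested genes differed at an adjusted p under 0.05 by edgeR's quasi-likelihood test, against 81.8% of all 15669 genes tested, so the members' share (70.4%) was not above the background. In PC3 15 were lower than in MG63 and 4 were higher. The log2 fold change of PC3 over MG63 was -7.20 for SNHG18, -3.64 for SNHG19, -2.93 for SNHG5, -2.32 for SNHG4 and -1.96 for GAS5. SNHG16, SNHG17 and SNHG15 were higher in PC3, by 1.10, 0.66 and 0.64. SNHG14 had 1988 and 2332 fragments in the PC3 siControl libraries and 1 and 0 in those of MG63.

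With siLARP4A, every host gene that passed the test was lower, in both lines. In PC3 cells 10 of 27 fell and 0 rose, where 19.0% of all tested genes fell and 17.0% rose. SNHG9, SNHG29, SNHG30, GAS5 and SNHG8 fell most, to between 55.9% and 68.3% of the siControl level. In MG63 cells 11 of 27 fell and 0 rose, where 11.9% of all tested genes fell and 14.4% rose, and SNHG9, SNHG19 and SNHG21 fell most. GAS5, SNHG3, SNHG7, SNHG9 and SNHG29 fell in both lines, 50% of the PC3 list and 45.5% of the MG63 list. The overlap between lines over all tested genes is not given here, so these shares have no reference. The median log2 fold change over the 27 genes was -0.21 in PC3 and -0.25 in MG63, beside 0 and 0.01 over all tested genes. At an unadjusted p under 0.05 the PC3 comparison had 11 members and the MG63 comparison 13. No member rose by DESeq2 either. By limma on log2(FPKM + 0.5) 1 member rose in PC3 and 0 in MG63. Host gene models are short, with a median of 1087 bases over the 27 against 3217 over all tested genes. The 1335 tested genes above 500 and up to 1200 bases, a class that holds 12 of the 27, had a median log2 fold change of -0.16 in PC3 and -0.07 in MG63, and the 314 genes up to 500 bases had 0.06 and -0.05. With an offset for model length, 9 members fell in each line and 1 rose in MG63. The MG63 count was 7 without siLARP4A replicate 1.

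With siLARP4B most members that passed the test were higher. In PC3 cells 12 of 27 rose and 1 fell, where 21.3% of all tested genes rose and 23.4% fell. SNHG18, SNHG19, SNHG20 and SNHG4 rose most, and SNHG28, which has no annotated snoRNA inside it, fell. In MG63 cells 7 of 27 rose and 0 fell, where 18.8% of all tested genes rose and 16.3% fell. SNHG5, SNHG7, SNHG16, SNHG19, SNHG20 and SNHG29 rose in both lines, 50% of the PC3 list and 85.7% of the MG63 list. For this overlap too, no share over all tested genes is given. The median log2 fold change was 0.21 in PC3 and 0.01 in MG63, beside 0.003 and 0 over all tested genes; in MG63 14 of the 27 estimates were above 0 and 13 below. At an unadjusted p under 0.05 the MG63 comparison had 9 members. DESeq2 and limma also gave 0 lower members there. The number of MG63 calls rested on single libraries: it was 4 without siControl replicate 2 and 3 without siLARP4B replicate 1. Genes above 500 and up to 1200 bases had a median of 0 in both lines. The comparisons of siLARP4A and of siLARP4B share their siControl libraries within a line, so their values are set side by side here and not correlated.

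**Figure D1:**
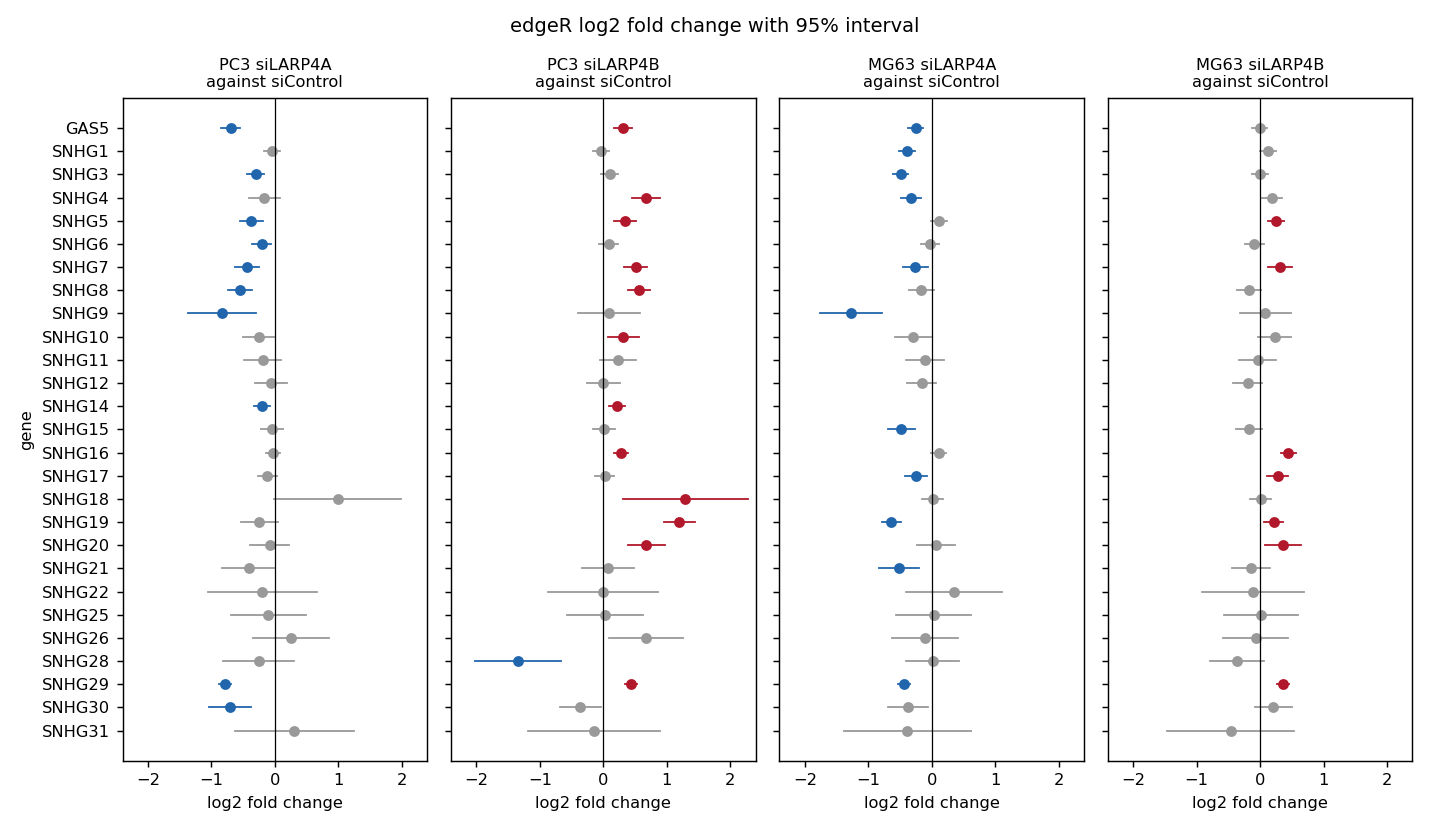
Log2 fold change against siControl (horizontal axis) for the 27 tested host genes (vertical axis) in the 4 comparisons, as points with 95% intervals from the edgeR fit. Blue marks genes that fell and red genes that rose at an adjusted p under 0.05, grey the rest, and SNHG14 is left out in MG63, where it had 0 or 1 fragment per library. Blue points number 10 and 11 in the siLARP4A panels, red points 12 and 7 in the siLARP4B panels.

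The hosts of box C/D snoRNAs form the largest class, with 13 members of which 12 were tested. Of the 12, 6 fell with siLARP4A and 7 rose with siLARP4B in PC3, and 4 fell and 4 rose in MG63. Of all tested genes, 19.0% and 21.3% did so in PC3 and 11.9% and 18.8% in MG63. SNHG29 (chr17:16438987-16442026, plus strand), which carries SNORD49A, SNORD49B and SNORD65, had the most fragments of the family. SNHG29 in PC3 cells had FPKM values of 177 and 178 with siControl, 101 and 106 with siLARP4A, and 248 and 244 with siLARP4B. Each siRNA group stood apart from the other groups, with siLARP4A lowest and siLARP4B highest. In MG63 cells, SNHG29 had 223 and 218 with siControl, 162 and 158 with siLARP4A, and 283 and 273 with siLARP4B, and the groups were again in that order without overlap. The fall with siLARP4A was a log2 fold change of -0.79 (SE 0.05, adjusted p = 1.4e-11) in PC3 and a log2 fold change of -0.44 (SE 0.05, adjusted p = 1.6e-07) in MG63. Its rise with siLARP4B was a log2 fold change of 0.43 (SE 0.04, adjusted p = 5.1e-08) in PC3 and a log2 fold change of 0.36 (SE 0.04, adjusted p = 1.3e-06) in MG63. LRRC75A, a protein-coding gene on the opposite strand that overlaps SNHG29, moved with it, by -0.87 and 0.44 in PC3 and by -0.44 and 0.45 in MG63 on the log2 scale. Whether fragments were counted by strand is not given in the sources used here, so fragments of the overlapping exons cannot be told apart.

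GAS5 (chr1:173863899-173867991, minus strand) carries 10 box C/D snoRNAs and SNORA103. GAS5 in PC3 cells had FPKM values of 56.2 and 55.2 with siControl, 33.2 and 36.2 with siLARP4A, and 71.0 and 71.0 with siLARP4B. Both siLARP4A libraries lay below and both siLARP4B libraries above the siControl pair. In MG63 cells, GAS5 had 199 and 189 with siControl, 155 and 166 with siLARP4A, and 196 and 181 with siLARP4B, where siLARP4A was again lowest and siLARP4B overlapped siControl. GAS5 fell with siLARP4A in PC3 (log2 fold change -0.70, SE 0.07, adjusted p = 1.9e-07) and in MG63 (log2 fold change -0.25, SE 0.06, adjusted p = 0.0026). The MG63 difference no longer passed without siControl replicate 1 (adjusted p = 0.054) or siLARP4A replicate 1 (adjusted p = 0.065). GAS5 rose with siLARP4B in PC3 (log2 fold change 0.31, SE 0.07, adjusted p = 0.0010), and its MG63 value was -0.01 (adjusted p = 0.93). GAS5-AS1 on the opposite strand had a mean FPKM of 3.07, 1.86 and 3.71 with siControl, siLARP4A and siLARP4B in PC3, the same order as GAS5.

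SNHG19 (chr16:2154782-2155358, minus strand), a compact gene around SNORD60 with a model of 357 bases, showed the greatest rise of the family with siLARP4B after SNHG18, a gene near 0 in PC3. SNHG19 in PC3 cells had FPKM values of 17.3 and 18.1 with siControl, 13.6 and 16.8 with siLARP4A, and 43.1 and 40.7 with siLARP4B. The siLARP4B pair lay far above the siControl pair, and siLARP4A just below it. In MG63 cells, SNHG19 had 202 and 193 with siControl, 120.2 and 130.1 with siLARP4A, and 237 and 212 with siLARP4B, with siLARP4A well below the rest. It rose with siLARP4B in PC3 (log2 fold change 1.20, SE 0.12, adjusted p = 3.4e-08) and by less in MG63 (log2 fold change 0.21, SE 0.07, adjusted p = 0.021). The MG63 rise did not pass without siControl replicate 1, siControl replicate 2 or siLARP4B replicate 1 (adjusted p = 0.051, 0.17 and 0.28). With siLARP4A it fell in MG63 (log2 fold change -0.64, SE 0.07, adjusted p = 8.2e-07), and in PC3 the value was -0.25 (adjusted p = 0.19).

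SNHG5 (chr6:85677007-85678733, minus strand) carries SNORD50A and SNORD50B. SNHG5 in PC3 cells had FPKM values of 51.1 and 44.5 with siControl, 35.5 and 39.1 with siLARP4A, and 62.4 and 61.9 with siLARP4B. Here siLARP4A was lowest and siLARP4B highest without overlap. In MG63 cells, SNHG5 had 322 and 331 with siControl, 337 and 363 with siLARP4A, and 399 and 362 with siLARP4B, with both siRNA pairs above siControl. It fell with siLARP4A in PC3 (log2 fold change -0.37, SE 0.09, adjusted p = 0.0020), a difference that did not pass without siControl replicate 1 or siLARP4A replicate 1 (adjusted p = 0.095 and 0.053). With siLARP4B it rose in PC3 (log2 fold change 0.34, SE 0.08, adjusted p = 0.0022) and in MG63 (log2 fold change 0.25, SE 0.06, adjusted p = 0.0028), the latter not without siLARP4B replicate 1 (adjusted p = 0.066).

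SNHG16 (chr17:76557764-76565348, plus strand), the host of SNORD1A, SNORD1B and SNORD1C, passed the test with siLARP4B in both lines and with siLARP4A in neither. SNHG16 in PC3 cells had FPKM values of 72.6 and 73.7 with siControl, 71.2 and 72.8 with siLARP4A, and 93.3 and 89.1 with siLARP4B. In MG63 cells, SNHG16 had 30.1 and 30.8 with siControl, 30.7 and 34.0 with siLARP4A, and 39.4 and 42.0 with siLARP4B. Both siLARP4B pairs were clear of the other libraries of their line. It rose with a log2 fold change of 0.28 (SE 0.05, adjusted p = 0.00014) in PC3 and with a log2 fold change of 0.45 (SE 0.06, adjusted p = 2.1e-06) in MG63. SNHG1 (chr11:62851978-62855885, minus strand), which carries 8 snoRNAs from SNORD22 to SNORD31, had FPKM values of 35.3 and 37.3 with siControl, 35.4 and 35.2 with siLARP4A, and 37.8 and 34.7 with siLARP4B in PC3, where all 6 libraries overlapped. In MG63 cells, SNHG1 had 46.1 and 46.9 with siControl, 34.0 and 36.2 with siLARP4A, and 48.9 and 50.4 with siLARP4B. There the siLARP4A pair was lowest, a fall with a log2 fold change of -0.39 (SE 0.06, adjusted p = 4.2e-05), and the siLARP4B pair lay just above siControl (0.12, adjusted p = 0.11).

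SNHG6, the host of SNORD87, passed no siRNA comparison in MG63 and 1 against siControl in PC3. SNHG6 in PC3 cells had FPKM values of 86.8 and 77.5 with siControl, 66.8 and 76.8 with siLARP4A, and 92.8 and 86.9 with siLARP4B. In MG63 cells, SNHG6 had 106 and 104 with siControl, 101 and 102 with siLARP4A, and 99.4 and 94.6 with siLARP4B. The PC3 siLARP4A pair lay just below siControl (log2 fold change -0.21, SE 0.07, adjusted p = 0.027). That difference did not pass without siControl replicate 1 (adjusted p = 0.50), siLARP4A replicate 1 (0.46) or either siLARP4B library (both 0.063), which enter through the shared fit. SNHG30 (chr17:35568114-35574313, plus strand), the host of SNORD7, had FPKM values of 7.69 and 8.34 with siControl, 4.39 and 5.62 with siLARP4A, and 6.33 and 6.51 with siLARP4B in PC3. Its siLARP4A pair was lowest, a fall with a log2 fold change of -0.71 (SE 0.16, adjusted p = 0.0011), and siLARP4B lay between (log2 fold change -0.36, adjusted p = 0.061). In MG63 cells, SNHG30 had 8.11 and 8.82 with siControl, 6.24 and 6.66 with siLARP4A, and 10.3 and 8.93 with siLARP4B, with siLARP4A lowest (-0.37, adjusted p = 0.079).

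SNHG14 (chr15:24823608-25419461, plus strand) spans the imprinted SNORD115 and SNORD116 clusters and its model of 19262 bases shares the locus with the protein-coding SNRPN and SNURF. SNHG14 in PC3 cells had FPKM values of 5.75 and 6.36 with siControl, 5.32 and 5.25 with siLARP4A, and 7.37 and 7.06 with siLARP4B. The order was siLARP4A, siControl, siLARP4B, and no groups overlapped. It fell with siLARP4A at a log2 fold change of -0.21 (SE 0.06, adjusted p = 0.011) and rose with siLARP4B at a log2 fold change of 0.21 (SE 0.06, adjusted p = 0.0073). The fall did not pass without siControl replicate 2 (adjusted p = 0.29) or siLARP4A replicate 2 (0.053), nor the rise without siControl replicate 1 (0.055). SNRPN, on the same strand and part of the same span, had mean FPKM values of 37.1 with siLARP4A, 42.9 with siControl and 47.8 with siLARP4B in PC3, the order of SNHG14, and 0 or 1 fragment in each MG63 library, as SNHG14 had. Fragments of the shared exons cannot be assigned to either gene, and no fold change of SNHG14 is given for MG63. Without SNHG14 the members' median in MG63 was -0.25 with siLARP4A and 0.01 with siLARP4B.

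SNHG18 (chr5:9546200-9550297, plus strand), the host of SNORD123, was found mainly in MG63. In MG63 cells, SNHG18 had 25.7 and 23.3 with siControl, 26.0 and 22.8 with siLARP4A, and 25.0 and 23.2 with siLARP4B, and the 3 groups overlapped. PC3 had only 5 to 14 fragments in any library, with FPKM values of 0.187 and 0.177 with siControl, 0.379 and 0.354 with siLARP4A, and 0.456 and 0.476 with siLARP4B. Its PC3 rise with siLARP4B (log2 fold change 1.29, SE 0.47, adjusted p = 0.030) did not pass when any 1 of the 4 libraries compared was left out (adjusted p = 0.071 to 0.10). SNHG25 (chr17:64145970-64146309, plus strand), the host of SNORD104 with a model of only 111 bases, varied more between replicates than between groups. SNHG25 in PC3 cells had FPKM values of 21.6 and 37.4 with siControl, 21.7 and 35.1 with siLARP4A, and 32.9 and 29.2 with siLARP4B. In MG63 cells, SNHG25 had 24.9 and 37.7 with siControl, 29.4 and 34.0 with siLARP4A, and 39.1 and 22.9 with siLARP4B. SNHG26, the host of SNORD93, stood between 1.68 and 3.69 FPKM in all libraries and passed no siRNA comparison. Its largest value was 0.67 with siLARP4B in PC3 (adjusted p = 0.057).

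**Figure D2:**
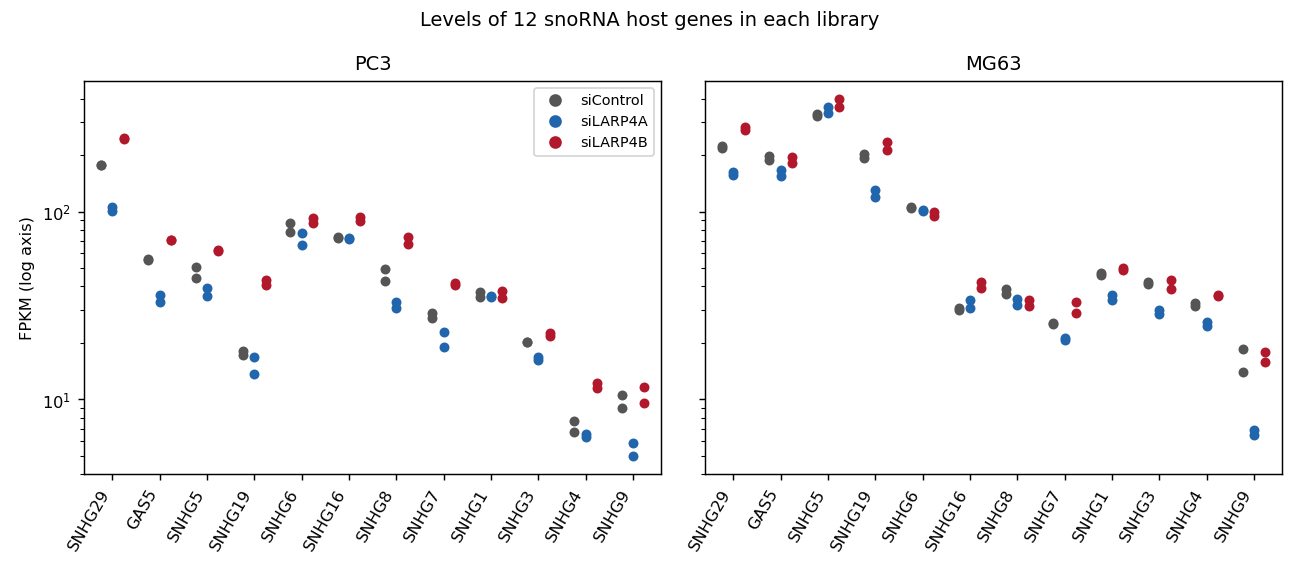
FPKM (vertical log axis) of 12 host genes in each of the 12 libraries, PC3 on the left and MG63 on the right, 1 point per library and 2 per group. SNHG29, GAS5, SNHG7 and SNHG9 have the siLARP4A pair (blue) lowest in both lines, and SNHG19 in PC3 has the siLARP4B pair (red) at 43.1 and 40.7 against 17.3 and 18.1 with siControl (grey).

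The hosts of box H/ACA snoRNAs number 10, all tested. In PC3 4 fell with siLARP4A and 3 rose with siLARP4B, and in MG63 6 fell and 2 rose. The rises, 3 of 10 and 2 of 10, were near the shares of all tested genes that rose (21.3% and 18.8%), and the falls compare with 19.0% and 11.9%. SNHG8 (chr4:118278762-118279823, plus strand), the host of SNORA24, passed the test in PC3 and not in MG63, with a test of the difference between lines given below. SNHG8 in PC3 cells had FPKM values of 49.5 and 43.0 with siControl, 30.5 and 33.2 with siLARP4A, and 72.9 and 67.0 with siLARP4B. The 3 groups were fully separate, with siLARP4A at the bottom and siLARP4B at the top. In MG63 cells, SNHG8 had 38.6 and 36.6 with siControl, 31.7 and 34.4 with siLARP4A, and 33.9 and 31.3 with siLARP4B, where both siRNA pairs lay below siControl. The PC3 changes were a log2 fold change of -0.55 (SE 0.09, adjusted p = 4.4e-05) with siLARP4A and a log2 fold change of 0.56 (SE 0.08, adjusted p = 1.0e-05) with siLARP4B. In MG63 the values were -0.17 (adjusted p = 0.21) and -0.18 (adjusted p = 0.15).

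SNHG7 (chr9:136724594-136728184, minus strand), the host of SNORA17A and SNORA17B, had the same order of groups in both lines. SNHG7 in PC3 cells had FPKM values of 28.8 and 27.3 with siControl, 19.1 and 22.9 with siLARP4A, and 40.6 and 41.7 with siLARP4B. In MG63 cells, SNHG7 had 25.3 and 25.6 with siControl, 21.2 and 20.9 with siLARP4A, and 33.1 and 29.03 with siLARP4B. No 2 groups of a line overlapped, and siLARP4B was highest in each. The PC3 changes were a log2 fold change of -0.44 (SE 0.09, adjusted p = 0.00064) with siLARP4A and a log2 fold change of 0.51 (SE 0.09, adjusted p = 4.2e-05) with siLARP4B. In MG63 they were a log2 fold change of -0.26 (SE 0.09, adjusted p = 0.046) and a log2 fold change of 0.31 (SE 0.09, adjusted p = 0.0085). The MG63 fall did not pass when any 1 of its 4 libraries was left out (adjusted p = 0.14 to 0.18), and the MG63 rise not without siControl replicate 1 (0.057) or siLARP4B replicate 1 (0.15). With the longest deposited model in place of the most counted one, SNHG7 kept only the PC3 rise: the PC3 fall was -0.17 (adjusted p = 0.18), the MG63 fall -0.18 (0.22) and the MG63 rise 0.19 (0.14). DIPK1B, which overlaps SNHG7 on the opposite strand, also rose with siLARP4B in MG63 (0.31, adjusted p = 0.0056). In PC3 its siLARP4B value was -0.18 (adjusted p = 0.15), opposite in sign to SNHG7. Strand handling is not given, so any shared fragments cannot be told apart.

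SNHG9 (chr16:1964996-1965504, plus strand), a 233-base model around SNORA78, had the greatest fall of the family with siLARP4A in MG63. SNHG9 in PC3 cells had FPKM values of 10.5 and 9.01 with siControl, 5.87 and 4.98 with siLARP4A, and 11.6 and 9.62 with siLARP4B. In MG63 cells, SNHG9 had 14.0 and 18.7 with siControl, 6.88 and 6.47 with siLARP4A, and 18.0 and 15.9 with siLARP4B. Both siLARP4A pairs were below every other library of their line, and siLARP4B overlapped siControl. It fell with a log2 fold change of -1.27 (SE 0.23, adjusted p = 0.00028) in MG63 and with a log2 fold change of -0.84 (SE 0.26, adjusted p = 0.014) in PC3. The PC3 fall did not pass without siControl replicate 1 (adjusted p = 0.12) or siLARP4A replicate 2 (0.077).

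SNHG4 (chr5:139273752-139283184, plus strand), the host of SNORA74A and SNORA74D, had PC3 FPKM values of 6.70 and 7.67 with siControl, 6.57 and 6.34 with siLARP4A, and 11.5 and 12.2 with siLARP4B. In MG63 cells, SNHG4 had 31.4 and 32.8 with siControl, 24.6 and 25.7 with siLARP4A, and 35.6 and 35.9 with siLARP4B. The siLARP4B pair was highest in each line, and the siLARP4A pair was lowest. It rose with siLARP4B in PC3 (log2 fold change 0.67, SE 0.11, adjusted p = 2.4e-05) and fell with siLARP4A in MG63 (log2 fold change -0.33, SE 0.08, adjusted p = 0.0026), a fall that did not pass with its longest model (-0.28, adjusted p = 0.11). MATR3, a protein-coding gene that overlaps SNHG4 on the same strand, had a log2 fold change of -0.29 with siLARP4B in PC3, opposite in sign to SNHG4. SNHG3 (chr1:28505943-28510892, plus strand), the host of SNORA73A and SNORA73B, had PC3 FPKM values of 20.2 and 20.2 with siControl, 16.1 and 16.9 with siLARP4A, and 21.8 and 22.7 with siLARP4B. In MG63 cells, SNHG3 had 42.3 and 41.3 with siControl, 28.7 and 30.01 with siLARP4A, and 38.9 and 43.1 with siLARP4B. Its siLARP4A pair was lowest in both lines, a fall with a log2 fold change of -0.30 (SE 0.07, adjusted p = 0.00085) in PC3 and with a log2 fold change of -0.49 (SE 0.06, adjusted p = 1.8e-06) in MG63. RCC1, which encodes the guanine exchange factor of Ran and overlaps SNHG3 on the same strand, also fell with siLARP4A, by 0.29 and 0.44 on the log2 scale. Any fragments of exons shared by SNHG3 and RCC1 cannot be assigned to either gene. RCC1 is also on the list of protein-coding hosts given below.

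SNHG15 and SNHG17 passed against siControl in MG63 and not in PC3; the siLARP4A responses of SNHG17 in the 2 lines did not differ past the threshold (adjusted p = 0.51). SNHG15 (chr7:44983023-44986696, minus strand), the host of SNORA9, had FPKM values of 30.1 and 30.4 with siControl, 28.4 and 30.9 with siLARP4A, and 31.4 and 31.6 with siLARP4B in PC3. Those values lay within a narrow range. In MG63 cells, SNHG15 had 18.0 and 16.8 with siControl, 11.6 and 13.0 with siLARP4A, and 16.1 and 14.2 with siLARP4B, with siLARP4A lowest (log2 fold change -0.48, SE 0.10, adjusted p = 0.0010). SNHG17 (chr20:38420588-38435377, minus strand), the host of SNORA71A to SNORA71D, had FPKM values of 29.4 and 28.9 with siControl, 25.9 and 28.4 with siLARP4A, and 31.0 and 30.1 with siLARP4B in PC3. In MG63 cells, SNHG17 had 16.7 and 16.3 with siControl, 13.2 and 14.1 with siLARP4A, and 19.5 and 19.8 with siLARP4B, in the order siLARP4A, siControl, siLARP4B without overlap. Its MG63 fall (log2 fold change -0.25, SE 0.08, adjusted p = 0.030) did not pass when any 1 of its 4 libraries was left out (adjusted p = 0.059 to 0.19). The MG63 rise with siLARP4B (log2 fold change 0.28, SE 0.08, adjusted p = 0.0087) did not pass without siControl replicate 2 (adjusted p = 0.066). Unlike the genes above, SNHG11 and SNHG12 passed no siControl comparison. SNHG11, the host of SNORA60 and SNORA71E, had FPKM values of 8.50 and 9.47 with siControl, 7.14 and 8.88 with siLARP4A, and 10.3 and 11.6 with siLARP4B in PC3. In MG63 cells, SNHG11 had 8.44 and 9.69 with siControl, 7.21 and 9.41 with siLARP4A, and 8.83 and 8.53 with siLARP4B. SNHG12, the host of SNORA16A, SNORA44, SNORA61 and SNORD99, had FPKM values of 10.1 and 11.3 with siControl, 9.37 and 11.5 with siLARP4A, and 10.4 and 11.8 with siLARP4B in PC3. In MG63 cells, SNHG12 had 17.4 and 15.9 with siControl, 13.5 and 16.0 with siLARP4A, and 14.3 and 14.2 with siLARP4B. The 95% interval of its log2 fold change was -0.32 to 0.19 with siLARP4A and -0.26 to 0.26 with siLARP4B in PC3. SNHG31, whose span holds SNORA70I, stayed under 0.5 FPKM in all libraries and passed no comparison.

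The hosts of scaRNAs number 4, and 2 of them rose with siLARP4B in PC3, where 21.3% of all tested genes rose. With siLARP4A 0 fell in PC3 and 1 fell in MG63, and 1 rose with siLARP4B in MG63. Of all tested genes 19.0%, 11.9% and 18.8% did so. In a class of 4 these counts cannot be told apart from those shares. SNHG20 (chr17:77088643-77094986, plus strand), the host of SCARNA16, had PC3 FPKM values of 4.29 and 3.99 with siControl, 3.45 and 4.52 with siLARP4A, and 7.07 and 6.53 with siLARP4B. Only the siLARP4B pair stood apart, a rise with a log2 fold change of 0.68 (SE 0.14, adjusted p = 0.00042). In MG63 cells, SNHG20 had 5.45 and 4.06 with siControl, 4.49 and 5.26 with siLARP4A, and 6.05 and 5.91 with siLARP4B, and its rise there (log2 fold change 0.36, SE 0.14, adjusted p = 0.047) did not pass in 9 of the 12 fits that each left out 1 library, with an adjusted p of up to 0.51, reached without MG63 siControl replicate 2. SEC14L1, on the same strand and overlapping SNHG20, rose with siLARP4B in PC3 as well, by 0.74 on the log2 scale, and any fragments of shared exons cannot be assigned to either gene. SNHG10 (chr14:95532912-95534872, minus strand), the host of SCARNA13, had PC3 FPKM values of 5.25 and 4.85 with siControl, 4.29 and 4.22 with siLARP4A, and 6.63 and 6.32 with siLARP4B. The model used has 1961 bases over a span of 1961 bases, so it has no intron. Its counts can include unspliced RNA and SCARNA13. The groups were in the order siLARP4A, siControl, siLARP4B. In MG63 cells, SNHG10 had 4.06 and 3.85 with siControl, 3.30 and 3.05 with siLARP4A, and 4.92 and 4.16 with siLARP4B, in the same order. Its PC3 rise with siLARP4B (log2 fold change 0.32, SE 0.12, adjusted p = 0.029) did not pass without siControl replicate 2 (adjusted p = 0.12) or siLARP4B replicate 1 (0.099). SNHG21 (chr15:82750564-82757206, plus strand), the host of SCARNA15, had FPKM values of 3.41 and 3.81 with siControl, 2.61 and 2.90 with siLARP4A, and 3.91 and 3.91 with siLARP4B in PC3. In MG63 cells, SNHG21 had 8.36 and 9.30 with siControl, 6.22 and 5.99 with siLARP4A, and 7.21 and 8.55 with siLARP4B. It fell with siLARP4A in MG63 (log2 fold change -0.51, SE 0.15, adjusted p = 0.015), but not without siControl replicate 2 (adjusted p = 0.13), siLARP4A replicate 1 (0.063) or siLARP4A replicate 2 (0.097). SNHG22, the host of SCARNA17, stayed under 1 FPKM in all libraries and passed no comparison.

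The remaining members were low or unmeasured. SNHG28 (chr1:159834478-159855037, minus strand), in which no snoRNA is annotated, had PC3 FPKM values of 0.834 and 0.809 with siControl, 0.740 and 0.632 with siLARP4A, and 0.313 and 0.354 with siLARP4B. The siLARP4B pair was lowest, a fall with a log2 fold change of -1.34 (SE 0.33, adjusted p = 0.0018). In MG63 cells, SNHG28 had 2.11 and 1.502 with siControl, 1.52 and 2.05 with siLARP4A, and 1.40 and 1.34 with siLARP4B, where siControl and siLARP4A overlapped and siLARP4B was lowest (-0.37, adjusted p = 0.19). SLAMF8, on the opposite strand within its span, also fell with siLARP4B in PC3, by 1.48 on the log2 scale (adjusted p = 0.0099). SNHG27, also without an annotated snoRNA, had 0 fragments in all 12 libraries, which allows up to 3 per library. SNHG32, the host of SNORD48 and SNORD52, had 0 or 1 fragment per library. SNHG32 also has 36 models on alternate contigs, so its value on the primary chromosome is not a level of the gene, and it was not tested.

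With the 2 knockdowns set directly against each other, more host genes passed the test. In PC3, 16 of 27 were lower with siLARP4A than with siLARP4B and 1 was higher, where 27.2% of all tested genes were lower and 27.0% higher. In MG63, 13 were lower and 0 higher, where 21.5% of all tested genes were lower and 22.1% higher. At an unadjusted p under 0.05 the MG63 comparison had 16 members, and DESeq2 called 13. GAS5, SNHG3, SNHG4, SNHG7, SNHG9, SNHG10, SNHG16, SNHG19 and SNHG29 were lower in both lines, an overlap given without a share over all tested genes. The largest of these 9 differences in PC3 were those of SNHG19 (log2 fold change -1.45, SE 0.12, adjusted p = 1.0e-09) and SNHG29 (log2 fold change -1.23, SE 0.05, adjusted p = 2.1e-15). In MG63 they were those of SNHG9 (log2 fold change -1.35, SE 0.23, adjusted p = 5.5e-05) and SNHG19 (log2 fold change -0.85, SE 0.07, adjusted p = 3.6e-09). Among these 9, SNHG9 in PC3 did not pass without siLARP4B replicate 1 (adjusted p = 0.054), nor SNHG10 in MG63 without siLARP4B replicate 1 (0.054). The median log2 difference over the 27 genes was -0.41 in PC3 and -0.31 in MG63, beside -0.01 and 0.01 over all tested genes. The counts include genes that overlap another gene. Of the 14 tested members that overlap none, 7 in PC3 and 8 in MG63 were lower with siLARP4A than with siLARP4B and none was higher. Against siControl, these 14 gave 4 falls with siLARP4A and 6 rises with siLARP4B in PC3, and 5 falls and 4 rises in MG63. The shares of all tested genes in those comparisons were 19.0% and 21.3% in PC3, and 11.9% and 18.8% in MG63. Where a called member had several models, every model had the sign of the chosen one, in 6 of 6 and 8 of 8 genes with siLARP4A and siLARP4B in PC3 and in 9 of 9 and 4 of 4 in MG63.

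**Figure D3:**
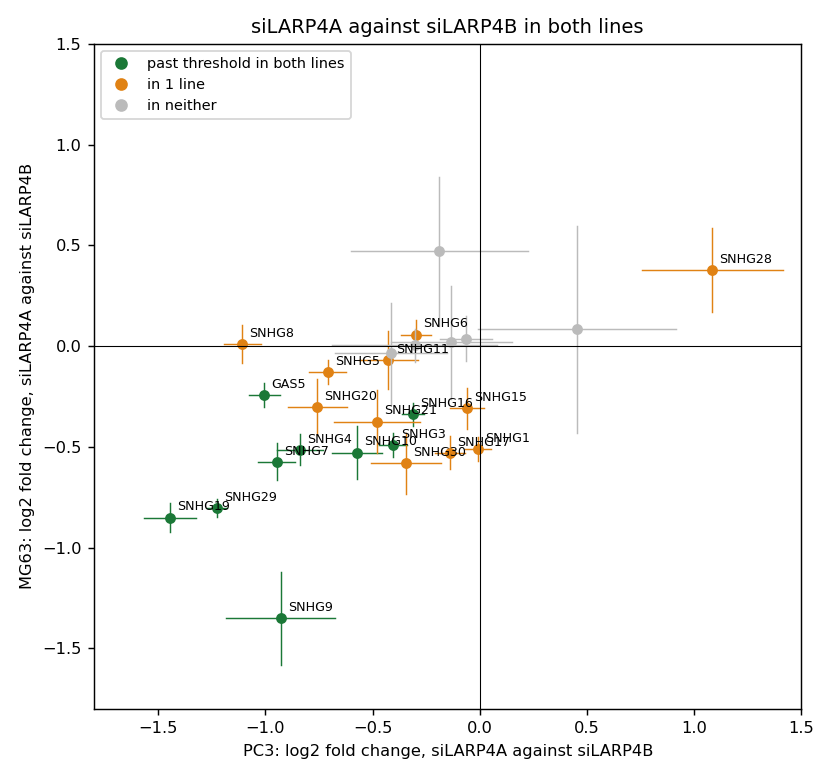
Log2 fold change of siLARP4A over siLARP4B in PC3 (horizontal) and MG63 (vertical) for 26 tested host genes, without SNHG14, with bars of 1 standard error. Green genes passed in both lines, orange in 1 and grey in neither; the 9 green genes, GAS5 and SNHG29 among them, lie at the lower left, and SNHG28 alone of the coloured genes lies in the upper right.

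Some responses differed between the lines when the difference itself was tested. For siLARP4A, 5 of 27 members differed, against 11.4% of all tested genes. The fall in PC3 exceeded that in MG63 for GAS5 (log2 difference -0.44, SE 0.10, adjusted p = 0.0033) and SNHG29 (log2 difference -0.35, SE 0.06, adjusted p = 0.00089), and SNHG5 fell in PC3 against a value of 0.12 in MG63 (log2 difference -0.49, SE 0.11, adjusted p = 0.0039). SNHG1 (log2 difference 0.34, SE 0.09, adjusted p = 0.012) and SNHG15 (log2 difference 0.43, SE 0.13, adjusted p = 0.033) fell in MG63, with PC3 values of -0.05 and -0.05. For siLARP4B, 5 of 27 differed, against 27.9% of all tested genes, so the members' share (18.5%) was below the background. SNHG19 (log2 difference 0.99, SE 0.14, adjusted p = 1.5e-05), SNHG8 (log2 difference 0.73, SE 0.13, adjusted p = 0.00013), SNHG4 (log2 difference 0.49, SE 0.13, adjusted p = 0.0072) and GAS5 (log2 difference 0.32, SE 0.09, adjusted p = 0.012) had the higher response in PC3 (the siLARP4A difference of SNHG8 was -0.38, adjusted p = 0.060), and SNHG30 (log2 difference -0.57, SE 0.21, adjusted p = 0.046) the lower. The siLARP4A count fell to 3 without MG63 siControl replicate 2 or MG63 siLARP4A replicate 1.

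Summed over the 27 tested genes, host gene RNA made up 963 and 971 FPM with siControl in PC3, 761 and 804 with siLARP4A, and 1230 and 1197 with siLARP4B. In MG63 the sums were 1231 and 1213 with siControl, 1003 and 1046 with siLARP4A, and 1390 and 1341 with siLARP4B. The groups did not overlap in either line. SNHG29 alone gave 18.2% to 28.4% of these fragments. Without SNHG29 and SNHG14, the sums in PC3 were 607 and 602, 519 and 556, and 742 and 722, and in MG63 they were 921 and 910, 778 and 827, and 997 and 962 (siControl, siLARP4A and siLARP4B). A sum weights long and abundant genes, and no p is given for it.

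**Figure D4:**
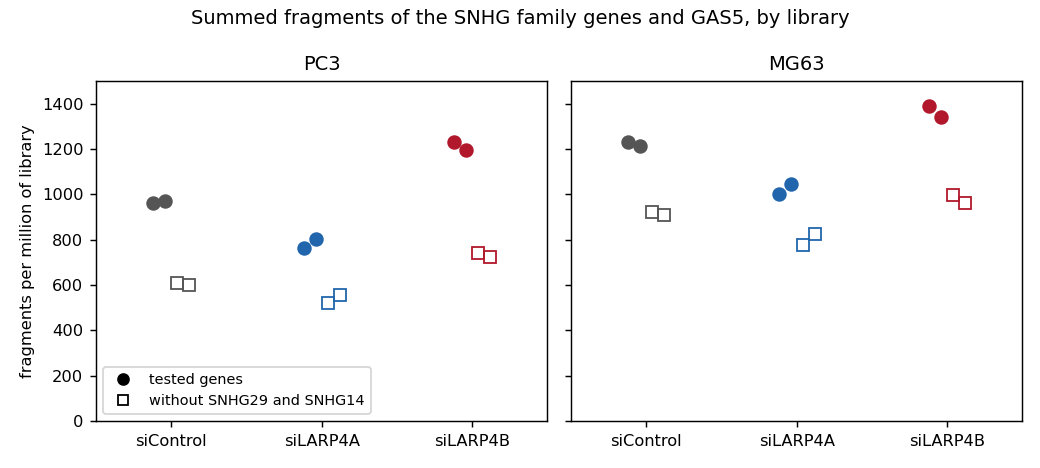
Summed FPM (fragments per 1000000 of library; vertical axis, from 0) for the 27 tested host genes (filled circles) and without SNHG29 and SNHG14 (open squares), 1 point per library, by siRNA and line. The siLARP4A pair is lowest and the siLARP4B pair highest in both lines, for example 761 and 804 against 1230 and 1197 FPM in PC3.

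Other genes of the same pathways were taken from named lists. A list of 6 further noncoding hosts held 2 that the tables name SNHG29 and SNHG32 and 1 with too few fragments. Of the 3 tested, all 3 fell with siLARP4A in PC3 and 2 rose with siLARP4B. DANCR fell with siLARP4A in PC3 (log2 fold change -0.46, SE 0.07, adjusted p = 2.0e-05) and in MG63 (log2 fold change -0.64, SE 0.07, adjusted p = 1.8e-07). ZFAS1, also known for a TOP start, fell with siLARP4A (log2 fold change -0.26, SE 0.06, adjusted p = 0.0013) and rose with siLARP4B (log2 fold change 0.40, SE 0.06, adjusted p = 4.4e-06) in PC3, and rose with siLARP4B in MG63 (log2 fold change 0.17, SE 0.06, adjusted p = 0.029). EPB41L4A-AS1 fell (log2 fold change -0.38, SE 0.10, adjusted p = 0.0047) and rose (log2 fold change 0.40, SE 0.10, adjusted p = 0.0016) in the same PC3 comparisons. In MG63, 1 of the 3 fell with siLARP4A and 1 rose with siLARP4B. The shares of all tested genes that fell with siLARP4A and rose with siLARP4B were 19.0% and 21.3% in PC3. In MG63 they were 11.9% and 18.8%, from which a count of 1 in 3 cannot be told apart.

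A list of protein-coding genes with intronic snoRNAs gave other counts. Genes of ribosomal proteins were left out of it, and not all of its 27 genes were kept for testing. Of 25 tested, 10 fell and 2 rose with siLARP4A in PC3, but 16 fell and 4 rose with siLARP4B, with a median log2 fold change of -0.23, while the noncoding hosts had a median of 0.21. In MG63, 8 fell and 2 rose with siLARP4A, and 4 fell and 8 rose with siLARP4B. Of all tested genes 19.0% fell and 17.0% rose with siLARP4A and 23.4% fell and 21.3% rose with siLARP4B in PC3, and 11.9% and 14.4%, and 16.3% and 18.8%, did so in MG63, so the 4 falls in 25 with siLARP4B in MG63 were at the background. CCT6A and TCP1, subunits of the chaperonin that folds actin and tubulin, fell with siLARP4B in PC3 by 0.94 and 0.92 on the log2 scale. IPO7, a nuclear import receptor, fell by 1.02, and SNRPB, a core spliceosomal protein, by 0.70. Of 8 core proteins of snoRNA particles, 6 fell and 1 rose with siLARP4A in PC3, 5 fell and 1 rose with siLARP4B in PC3, 4 fell and 0 rose with siLARP4A in MG63, and 0 fell and 4 rose with siLARP4B in MG63. Of the 8, 3 (NOP56, NOP58 and DKC1) are also on the list of protein-coding hosts. DKC1, the pseudouridine synthase of box H/ACA particles, fell with both siRNAs in PC3 (-0.54 and -0.38). SNU13, which binds the kink-turn of box C/D snoRNAs, fell with siLARP4A in PC3 (log2 fold change -0.48, SE 0.05, adjusted p = 1.9e-07) and in MG63 (log2 fold change -0.32, SE 0.05, adjusted p = 9.5e-05) and rose with siLARP4B in both (0.20 and 0.34). FBL, the methyltransferase of box C/D particles, fell by 0.44 with siLARP4B in PC3, and NHP2, a box H/ACA protein, fell by 0.37 with siLARP4A there. FBL also fell with siLARP4A in PC3 (-0.16, adjusted p = 0.024). With siLARP4B in MG63 both FBL and NHP2 rose (0.15 and 0.27, adjusted p = 0.047 and 0.00019).

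Of 17 nonsense-mediated decay factors, 5 fell and 1 rose with siLARP4A in PC3, 10 fell and 2 rose with siLARP4B in PC3, 5 fell and 0 rose with siLARP4A in MG63, and 3 fell and 4 rose with siLARP4B in MG63. With siLARP4B in MG63 these counts were near the shares of all tested genes (16.3% fell and 18.8% rose), while the 10 falls with siLARP4B in PC3 compare with 23.4%. RNPS1, a protein associated with the exon junction complex, fell with siLARP4B in PC3 by 0.44, and also with siLARP4A in MG63 (-0.13, adjusted p = 0.044). NCBP1, a cap-binding protein, and EIF4A3, the core helicase of the exon junction complex, rose with siLARP4B in MG63 by 0.54 and 0.37. EIF4A3 fell in every other comparison with siControl. Its values were -0.16 and -0.19 with siLARP4A and siLARP4B in PC3 (adjusted p = 0.015 and 0.0047). With siLARP4A in MG63 it was -0.20 (adjusted p = 0.0078). The 7 mRNAs listed as decay targets gave other counts. With siLARP4A 4 rose and 2 fell in PC3, and 3 rose and 0 fell in MG63. With siLARP4B 3 rose and 1 fell in PC3, and 0 rose and 2 fell in MG63. Beside both lists, 17.0% of all tested genes rose and 19.0% fell with siLARP4A in PC3, and 14.4% and 11.9% in MG63. With siLARP4B 21.3% rose and 23.4% fell in PC3, and 18.8% and 16.3% in MG63. ATF3, a stress-induced transcription factor, rose with siLARP4A in PC3 (log2 fold change 0.75, SE 0.07, adjusted p = 5.8e-08) and MG63 (log2 fold change 1.04, SE 0.12, adjusted p = 8.1e-07). UPP1, uridine phosphorylase, rose in the same comparisons (0.39 and 1.23), and TBL2 fell with siLARP4A in PC3 (-0.48). ATF3 and UPP1 also rose with siLARP4B in PC3 (0.37 and 0.34, adjusted p = 0.00040 and 9.9e-05). Neither of them passed with siLARP4B in MG63 (0.29 and -0.12, adjusted p = 0.088 and 0.81). GADD45A, a stress response gene, rose with siLARP4A in both lines (0.21 and 0.27) and fell with siLARP4B in both (-0.21 and -0.50).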

How the data were processed

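Poly(A)-selected RNA of 12 libraries was sequenced. Per the submitters' processing notes, the authors used FastQC, HISAT2, featureCounts and edgeR with build hg38, with no versions given. The deposited tables give, for 86394 transcript models, a fragment count and an FPKM value, both made by the authors; models of a gene share fragments, and strand handling is not given in the sources used here. Per the file headers the FPKM is the count scaled to the fragments of the library and to the length of the model. In 3 tables a stray unnamed column was not used.

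Each symbol was reduced to its model of highest summed count; 1720 symbols with several loci or alternate contigs were left out, other than SNHG32. Counts of 12 libraries in 6 groups were fitted with edgeR 4.0.16 (R 4.3.3; TMM scaling, low-count filter by group, quasi-likelihood test) over 15669 genes, and p-values were adjusted by Benjamini-Hochberg over all genes in each of 9 comparisons, with a threshold of 0.05. The script was tested on simulated data. Replicates differed beyond counting noise (chi-square per degree of freedom 1.63 to 6.28). Alternatives used DESeq2 1.42.0, limma 3.58.1 on log2(FPKM + 0.5), other models, filters and scalings, and each library left out. Every member whose mean FPKM reached 5 in a group was given library by library, members below that by range or where they passed a test, and up to 4 genes with the lowest adjusted p per list, of which 1 is not reported here. The members and gene lists were chosen with earlier results of these data known. Promoter windows came from RefSeq (GRCh38.p14). Counting error and this further spread between replicates both limit precision.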

Additional observations from a re-analysis of the deposited data

Results flagged for a closer look

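For 9 host genes, 10 responses differed between PC3 and MG63 by the interaction test of the edgeR fit, given as the log2 fold change in PC3 minus that in MG63. For each siRNA 18.5% of the tested members differed. Of all tested genes 11.4% differed for siLARP4A and 27.9% for siLARP4B, so the siLARP4B share of the members was below the background. With siLARP4A the differences were -0.44 for GAS5, -0.49 for SNHG5 and -0.35 for SNHG29, where PC3 was the lower, and 0.34 for SNHG1 and 0.43 for SNHG15, where MG63 was the lower. With siLARP4B they were 0.99 for SNHG19, 0.73 for SNHG8, 0.49 for SNHG4 and 0.32 for GAS5, higher in PC3, and -0.57 for SNHG30. GAS5 and SNHG29 fell with siLARP4A in both lines, so for them the size differed and not the direction.

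Single libraries ended some of these calls. For siLARP4A, SNHG1 did not pass without MG63 siControl replicate 2 (adjusted p = 0.056) or MG63 siLARP4A replicate 1 (0.079). SNHG15 did not pass without either MG63 siControl library (adjusted p = 0.15 and 0.056) or MG63 siLARP4A replicate 1 (0.17). SNHG5 did not pass without PC3 siControl replicate 1 (adjusted p = 0.088). For siLARP4B, GAS5 did not pass without MG63 siControl replicate 1 (adjusted p = 0.062) or MG63 siLARP4B replicate 2 (0.055), and SNHG30 in 11 of the 12 fits that left out 1 library. Other settings ended some as well. The siLARP4A difference of SNHG29 did not pass with the deduplicated table of PC3 siControl replicate 2 (-0.27, adjusted p = 0.058) or that of SNHG15 by DESeq2 (0.46, adjusted p = 0.068). The siLARP4B difference of SNHG4 did not pass with the longest model per gene (0.48, adjusted p = 0.11), and that of SNHG30 did not in 5 fits with another setting (adjusted p = 0.054 to 0.18).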

How the results depend on the processing

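With 2 libraries a group and short models, small differences in weakly expressed host genes were not detectable. Of 41 calls of single host genes against siControl, 23 passed under every setting and with each library left out, and 18 did not in at least 1. No result changed direction. Leaving out each library in turn gave 7 to 12 falls with siLARP4A and 3 to 7 rises with siLARP4B in MG63, and 3 to 6 members whose siLARP4A response differed between lines; in PC3 it gave 7 to 10 falls with siLARP4A and 10 to 13 rises with siLARP4B. Limma on log2(FPKM + 0.5) gave 1 rise with siLARP4A and 2 falls with siLARP4B in PC3. An offset for model length, chosen after seeing the data, gave 1 rise with siLARP4A in MG63. Among calls against siControl, DESeq2 ended those of SNHG6, SNHG7, SNHG9, SNHG10, SNHG17, SNHG19, SNHG20 and SNHG21 in 1 comparison each (adjusted p = 0.057 to 0.12), and limma those of SNHG6 and SNHG14 (PC3 siLARP4A) and SNHG19 and SNHG20 (MG63 siLARP4B; 0.055 to 0.15). The length offset ended those of SNHG6, SNHG7 and SNHG17 (0.12 to 0.48), the deduplicated table those of SNHG6 and SNHG20 (0.12 and 0.053), and fits of 1 line those of SNHG6 and SNHG18 (0.059 and 0.057). Beside SNHG4 and SNHG7, the longest model ended those of SNHG6 and SNHG20 (0.051 and 0.052), and testing without a filter ended that of SNHG17 (0.052). The cause of these shifts was not tested.

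Same-numbered libraries of different siRNA groups did not deviate together (correlation -0.03 to 0.05), so no shared effect of the number was visible. Whether the numbers mark a shared culture or day is not said, and these correlations cannot settle it. With the replicate number as a block, 10 host genes fell with siLARP4A and 12 rose with siLARP4B in PC3, and 10 fell and 6 rose in MG63, where the block ended the fall of SNHG7 (adjusted p = 0.051) and the rise of SNHG20 (0.057).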
